A study of Mus musculus with 12 samples.

Results

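The regions described here are the constant, narrow Zic1/2 sites at gene ends of cultured mouse cerebellar granule neurons. Peaks from 12 CUT&RUN libraries (chromosomes 1 to 19 and X) that shared 1 bp or more were joined into 282545 regions, and 12241 of these held a peak in all 12 libraries. A region was kept when it was under 3000 bp wide and within 1 kb of either end of a protein-coding gene span on mm10, which left 6478 members. The members were thus selected on measured values, the presence and width of their peaks, so presence, width and position describe the choice and are not findings. CUT&RUN releases the DNA around a bound protein with a nuclease tethered to an antibody, here one against the C-terminal part of Zic1/2. Granule neurons were collected on day 1, 3, 5 or 7 of culture, named DIV1, DIV3, DIV5 and DIV7. Each day has 3 libraries, which are biological replicates according to the series design. The labels give no mouse strain, age or genotype. The protocol shared by all groups adds 1 uM cytosine arabinoside, an inhibitor of DNA synthesis, on day 2, so the DIV1 cells had not yet met it. No library with a control antibody and none from cells without Zic1/2 was used here, so signal that does not depend on the antibody was not tested.

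The transcription factors Zic1 and Zic2 carry zinc fingers related to those of the Gli factors, and cerebellar granule neurons and their progenitors make them in large amounts. They bind GC-rich DNA and are known for roles both in keeping progenitors dividing and in the later maturation of the neuron. Many mammalian gene starts lie in CpG islands, stretches rich in the CpG dinucleotide that are usually unmethylated, open and shared between tissues.

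Gene-start windows from RefSeq (GRCm38.p6, the same build as mm10) are shown for members whose signal rose or fell with the day and for a pair of the steadiest ones, because they show how starts in members range from CpG-rich to CpG-poor, and from several GC boxes to none. Each window runs 5′ to 3′ on the strand of its gene, from 250 bases before the gene start to 50 bases after it. Capitals mark CAGCAGG (the core of the ZIC motif), GGGCGG (the GC box of SP and KLF factors) and CCAAT, on either strand. The first 6 belong to members of the naming rule, and Cbln3 and Khnyn were chosen after their values were seen. The Wiz window is chr17:32389357-32389656 on the minus strand, that of Acaa1a chr9:119341044-119341343 on the plus strand, that of Krtap11-1 chr16:89571134-89571433 on the minus strand and that of Hs3st3b1 chr11:63922235-63922534 on the minus strand. The Klf11 window is chr12:24651121-24651420 on the plus strand, that of Ccdc115 chr1:34439623-34439922 on the minus strand, that of Cbln3 chr14:55884207-55884506 on the minus strand and that of Khnyn chr14:55884692-55884991 on the plus strand. Cbln3 and Khnyn start on opposite strands inside 1 member.
Wiz: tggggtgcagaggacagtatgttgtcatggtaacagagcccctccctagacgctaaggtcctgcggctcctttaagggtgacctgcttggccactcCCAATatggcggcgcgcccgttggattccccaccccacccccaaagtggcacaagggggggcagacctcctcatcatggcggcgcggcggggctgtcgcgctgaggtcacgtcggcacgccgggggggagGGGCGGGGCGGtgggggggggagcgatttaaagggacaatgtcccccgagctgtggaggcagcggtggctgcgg
Acaa1a: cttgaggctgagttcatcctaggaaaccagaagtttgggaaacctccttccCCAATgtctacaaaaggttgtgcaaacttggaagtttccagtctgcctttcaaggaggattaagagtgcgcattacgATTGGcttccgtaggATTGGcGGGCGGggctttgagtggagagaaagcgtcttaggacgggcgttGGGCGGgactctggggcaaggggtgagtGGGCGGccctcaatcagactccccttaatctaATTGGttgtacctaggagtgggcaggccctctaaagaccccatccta
Krtap11-1: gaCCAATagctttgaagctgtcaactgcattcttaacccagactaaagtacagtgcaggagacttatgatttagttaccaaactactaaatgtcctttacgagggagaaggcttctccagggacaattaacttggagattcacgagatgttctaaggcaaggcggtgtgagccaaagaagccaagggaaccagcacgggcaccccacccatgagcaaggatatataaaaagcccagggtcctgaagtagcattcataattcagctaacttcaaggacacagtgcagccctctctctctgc
Hs3st3b1: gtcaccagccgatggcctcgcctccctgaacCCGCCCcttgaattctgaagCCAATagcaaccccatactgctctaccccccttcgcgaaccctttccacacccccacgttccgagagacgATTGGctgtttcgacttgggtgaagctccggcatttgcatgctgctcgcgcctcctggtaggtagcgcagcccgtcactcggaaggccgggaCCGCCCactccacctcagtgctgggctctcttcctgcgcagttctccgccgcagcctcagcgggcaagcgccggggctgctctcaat
Klf11: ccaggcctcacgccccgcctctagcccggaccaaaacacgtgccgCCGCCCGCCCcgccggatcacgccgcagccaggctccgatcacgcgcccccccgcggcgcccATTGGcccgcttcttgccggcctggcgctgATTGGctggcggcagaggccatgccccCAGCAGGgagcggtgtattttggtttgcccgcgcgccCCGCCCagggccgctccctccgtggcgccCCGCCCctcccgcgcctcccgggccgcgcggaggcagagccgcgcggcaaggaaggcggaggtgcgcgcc
Ccdc115: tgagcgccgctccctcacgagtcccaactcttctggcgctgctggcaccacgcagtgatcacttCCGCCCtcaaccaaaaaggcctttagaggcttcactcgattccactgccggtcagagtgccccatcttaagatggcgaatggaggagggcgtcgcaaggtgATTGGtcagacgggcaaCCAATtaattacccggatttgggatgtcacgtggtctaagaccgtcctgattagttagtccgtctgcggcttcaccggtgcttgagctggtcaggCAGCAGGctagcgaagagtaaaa
Cbln3: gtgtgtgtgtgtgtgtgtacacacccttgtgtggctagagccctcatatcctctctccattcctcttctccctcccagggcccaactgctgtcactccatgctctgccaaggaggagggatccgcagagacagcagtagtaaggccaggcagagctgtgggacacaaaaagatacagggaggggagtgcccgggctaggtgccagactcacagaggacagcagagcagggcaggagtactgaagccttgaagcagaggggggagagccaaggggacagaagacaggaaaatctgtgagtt
Khnyn: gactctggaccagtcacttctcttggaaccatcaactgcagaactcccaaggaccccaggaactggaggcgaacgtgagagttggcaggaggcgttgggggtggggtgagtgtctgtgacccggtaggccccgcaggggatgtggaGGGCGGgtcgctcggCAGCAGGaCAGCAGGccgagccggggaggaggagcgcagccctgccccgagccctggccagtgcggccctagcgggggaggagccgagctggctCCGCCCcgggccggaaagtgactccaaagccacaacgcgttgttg
The window of Cbln3 had a CpG observed/expected ratio of 0.0839 and none of the 3 marked strings, while that of Khnyn beside it had a ratio of 0.596, 2 ZIC cores and 2 GC boxes. The Klf11 window had a ratio of 0.950, 1 ZIC core, 4 GC boxes and 2 CCAAT boxes. That of Krtap11-1 had a ratio of 0.245 and no GC box.

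Of the 6478 members, 5190 (80.1%) had a gene start of known strand within 1 kb. Another 142 had only a known end of transcription nearby, and the other 1146 lay at genes whose strand was not in the reference tables used here. In 681 members, genes on both strands started. A gene end lay inside the region itself in 5937 members (91.6%). Members reached 7494 of 21627 coding genes (34.7%), and of the 17273 genes with a strand they covered 5869 starts (34.0%) but 676 ends of transcription (3.91%). On the autosomes 28.1% (chromosome 7) to 42.1% (chromosome 8) of genes had a member, against 106 of 966 (10.97%) on chromosome X.

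At the median, the tallest point of the signal lay just inside the gene, while 34.3% of summits lay upstream of the start. Over 4485 members with a single gene start, the summit, taken as the median of its place in the 12 libraries, lay a median of 73.5 bp downstream of the start. The quartiles were -62.8 and 241 bp, and 69.2% of summits lay within 250 bp of the start. Library medians ranged from 54 bp (DIV1 replicate 1) to 90.5 bp (DIV1 replicate 2), so the position varied as much within DIV1 as over the whole course.

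**Figure D1:**
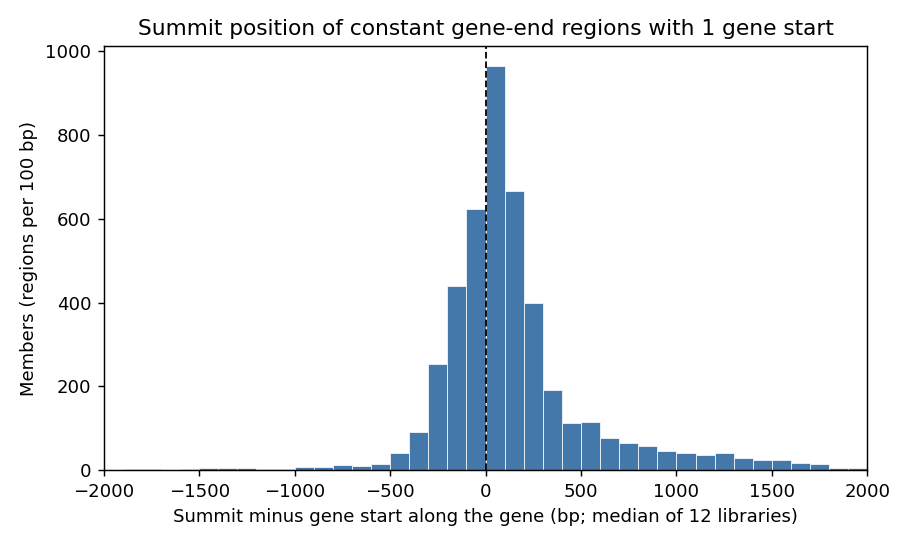
Histogram of the summit position of 4485 members with 1 gene start, in bp along the gene from the start (dashed line), as the median over 12 libraries; bars count regions per 100 bp. The highest bar, 965 members, lies in the first 100 bp of the gene, and the tail is longer on the gene side than upstream.

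Gene starts inside members were CpG-rich. The 5588 start windows inside a member had a median CpG ratio of 0.821 and 63% GC, against 0.347 and 52.3% in the 11685 other windows. Of starts with a ratio under 0.2, 51 of 3828 (1.33%) lay in a member, against 1729 of 3481 (49.7%) between 0.6 and 0.8 and 893 of 1413 (63.2%) at 1 or more. Among the members themselves, however, the ratio said little about the level. Across 5588 windows, which share libraries and are not independent, Spearman's rho between the CpG ratio and the mean percentile of signal was 0.0205.

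**Figure D2:**
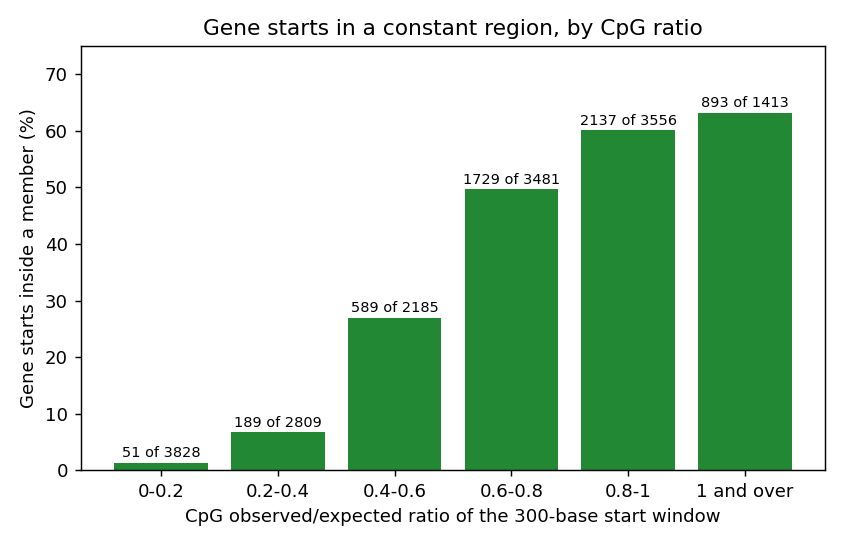
Share of gene starts that lie inside a member (percent), by the CpG observed/expected ratio of the 300-base start window; the numbers on the bars count starts in a member of all starts in the bin. The share climbs from 1.33% in the lowest bin to 63.2% in the highest.

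The short core of the ZIC motif was not more frequent at members than at other gene starts. CAGCAGG was found on either strand in 511 of 5588 member windows (9.14%) and in 10.4% of all 17273 windows. The longer CNCAGCAGG, which contains it, was found in 2.97% of member windows and 3.25% of all. The Gli core TGGGTGG was found in 9.13% and 9.59%. Strings of general promoter factors stood higher at members. GGGCGG was present in 72.9% against 46.9% of all windows, the ETS string CCGGAAG in 19.4% against 12.1%, and the NRF1 string GCGCATGC in 6.68% against 3.64%. TATAAA was rarer, at 4.94% against 13.4%. When only windows with a CpG ratio of at least 0.6 were compared (4763 in members and 3696 outside), the ZIC core stood at 8.67% and 8.85%, while the longer ZIC string, at 2.86% and 2.33%, and the Gli core, at 8.67% and 8.20%, were higher in members. GGGCGG stood there at 76.8% and 70.8%, NRF1 at 7.31% and 5.44%, ETS at 20.6% and 19.1%, CCAAT at 41.9% and 32.8% and TATAAA at 4.56% and 7.47%. Within members, windows with the ZIC core had a median mean percentile of 52.4 (n = 511), against 51.1 for the 5077 without it. Of the 17 strings searched, the longer ZIC string (59.1 against 51.03, n = 166 with it) and CCAAT (55.7 against 47.9, n = 2395 with it) had the widest gaps. These are matches of letters in a fixed window, which leaves out most of a member of median width 1669 bp, and no statement on binding by a factor follows from them.

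Lists of chaperone, spliceosome and BAF genes stood at the top of the 29 lists by their share with a member. Against the 34.7% of all coding genes, a member lay at 20 of 23 genes of heat shock proteins and chaperones, 25 of 33 of the spliceosome, 17 of 25 of the BAF chromatin remodelling complex, 34 of 55 translation initiation factors, 13 of 20 tRNA synthetases, 59 of 97 histone genes, many of them near-identical copies, and 49 of 82 cytoplasmic ribosomal proteins. Cell cycle genes had 24 of 40, the proteasome 25 of 48, Zfp zinc finger genes 187 of 367, oxidative phosphorylation 18 of 40, solute carriers 143 of 375, predicted Gm genes 136 of 1092 and vomeronasal receptors 2 of 353. The strongest chaperone member was at the start of Hsph1, a stress-induced chaperone (mean percentile 94.7), followed by Hsp90b1 of the endoplasmic reticulum (85.1) and Dnajb1, a cochaperone (77.1). The spliceosome was led by Hnrnpa2b1, which shares its member with Cbx3 (95.3), the BAF complex by Smarcd3 (90.3) and its ATPase Smarca4 (86.2). Rps19 led the ribosomal proteins (92.0) and Psmd5 the proteasome (81.8). In the cell cycle list, a member at the start of Rab5b, counted through the nearby end of Cdk2, stood at 84.5. The start of Cdk2 itself lies in another member, among the weakest ones named below. A member at Cdkn1b, an inhibitor of cyclin-dependent kinases, stood at 79.6.

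Neuronal lists stood nearer to the average. Of synapse genes 17 of 41 had a member, led by Nlgn2, an adhesion protein of inhibitory synapses (mean percentile 96.0). Of granule neuron markers 6 of 16 had one, namely Stmn2, Nrep, Tubb3, Fat2, Slc17a7 and Cbln3. The stronger of the Stmn2 members stood at 90.7 and the Nrep member at 87.0. Immediate early genes had 9 of 20, among them Fosl2 (89.1), Fos (85.2) and Npas4 (85.1). Of 14 hedgehog pathway genes 4 had a member: Sufu, Cdon, Smo and Boc, a co-receptor as Cdon is. The member of Sufu, an inhibitor of Gli factors, holds the start of Actr1a and stood at 65.8. Cdon stood at 56.0 and Smo, the signal transducer, at 30.3.

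Transcription factors of granule neurons were mostly outside the members, and some had wider constant regions in their place. Barhl2 and Uncx of 21 had a member, at mean percentiles of 40.9 and 29.9 at their starts, and 9 more (En2, Etv1, Insm1, Lhx1, Meis1, Mycn, Neurod2, Nfib and Pax6) had a constant region of 3000 bp or more at an end. Such broad regions lay at 822 (3.80%) of all coding genes. Zic5 had a member, Zic2 had a broad region, and Zic1 and Zic4 had neither. Jun, Junb, Jund, Egr1, Arc, Ier2 and Btg2 likewise had broad regions only. The other 10 of the 21 transcription factors had neither kind of region. Genes with broad regions only count as without a member through the width limit.

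Lists of other cells and tissues were counted in the same way, at either end of a gene and with genes of unknown strand included. There were 4 of 13 for Purkinje cells (Rora, Itpr1, Foxp2 and Aldoc), and 1 of these 4 genes had its member at a known start. The genes named for the other lists here had theirs at known starts. Inhibitory interneurons had 2 of 11 (Kit and Gad1), and astrocytes and Bergmann glia 2 of 11 (Gfap and Slc1a2). The endothelium had 1 of 9 (Kdr), the oligodendrocyte lineage 0 of 12 and microglia 0 of 10. Of 15 liver genes 1 had a member (Apoa2), of 12 keratin and skin genes 1 (Lor), and of 1106 olfactory receptor genes 1 (Olfr1121). A binding site at a gene does not show that the gene is expressed, so these counts do not test the purity of the cultures.

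**Figure D3:**
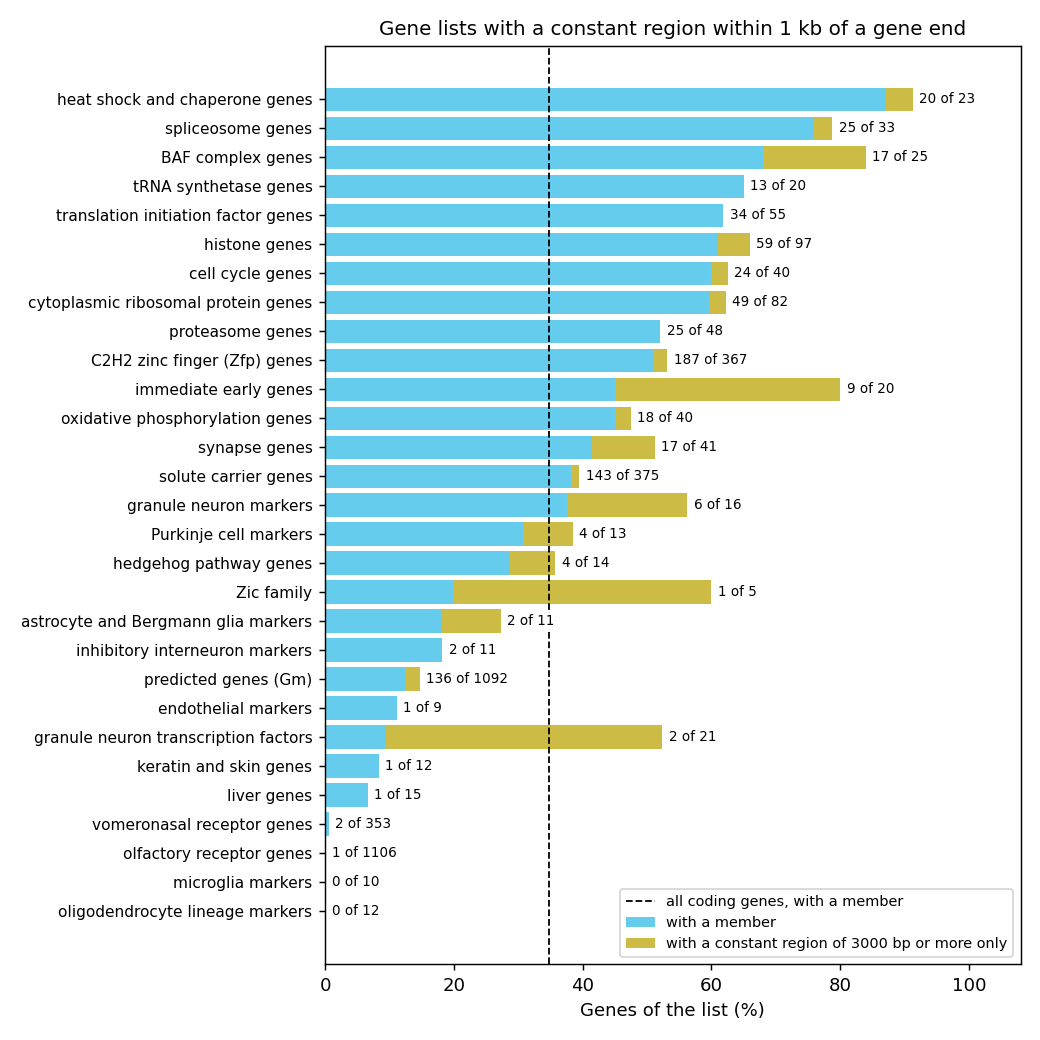
Share of the genes of 29 lists with a member within 1 kb of a gene end (blue, percent), and with only a broader constant region there (yellow); the printed numbers count genes with a member of all genes in the list, and the dashed line marks the 34.7% of all coding genes with a member. Chaperone, spliceosome and BAF genes stand at the top, and 9 of the 21 granule neuron transcription factors have only a broad region.

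Signal is given below as the percentile of the maximum signal of a region among the 12241 shared regions of the same library, so a change is a change of rank and not of absolute binding. Reads in peaks were 2.95 ± 0.286 M per library at DIV1 and 1.66 ± 0.753 M at DIV7 (SD, n = 3), and members took 22.2% to 27.6% of them (24.5 ± 1.77% at DIV1, SD, n = 3). The median member held 118 reads in the deepest library (DIV1 replicate 1) and 31 in the shallowest (DIV7 replicate 1), and a median of 81 over members and libraries. Median maximum signal was 9.5, with many ties between regions, so a percentile takes only certain steps. Between libraries, Spearman's rho of the reads of members, not of their maximum signal, was 0.644 to 0.883 for 12 pairs of the same day. For 54 pairs of different days it was 0.623 to 0.840. DIV7 replicate 1 stood apart in depth: of 1515 narrow gene-end regions called in 11 of the 12 libraries, 720 lacked a peak in this library only, and without it the members would number 7210.

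The strongest members stood high in every library. A region 239 bp from the end of Lars2, a mitochondrial leucyl-tRNA synthetase (chr9:123460812-123462436), had mean percentile 99.8 with a maximum signal of 47 to 71, and one 816 bp from the start of Sspn, a membrane protein (chr6:145932689-145933078), had 99.5. Neither holds a gene end, and regions prone to excess signal were not removed here. Next came members at 9430038I01Rik (98.5), Tacc3 and Tmem129, which start on opposite strands (98.4), Cep43, a centrosomal protein (98.2), Asmt, the last enzyme of melatonin synthesis (98.0), Tagap1 (98.0), Tbl2 (97.8), Mms19, which serves iron-sulfur protein assembly (97.7), and Sertad2 (97.7). The start windows of Cep43 and Tagap1, both on chromosome 17, hold a long identical stretch of bases. Regions at Zfp433 and Gm32687 on chromosome 10 had the same percentile in each library (97.1 on average). Such pairs may share reads between near-identical copies, so each is uncertain.

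The weakest members still had a peak in every list. Hs6st2, a heparan sulfate sulfotransferase on chromosome X, stood at 5.27 with a maximum signal of 3 to 8, Smim26 at 6.05, Megf6 at 7.01, the start of Cdk2 at 7.32 and Kcnt1, a potassium channel, at 7.35. Mean percentiles of members ran from 5.27 to 99.8, with quartiles of 33.3 and 67.5.

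Away from both extremes, the steadiest members were at Klf11, a GC-box binding repressor, Wipi2, an autophagy protein, Ints7 and Dtl, Rnf44, Usf2 and Lsr, and Ccdc115 and Imp4. The Klf11 member (chr12:24650317-24653115) had percentiles of 86.5, 92.7 and 86.6 at DIV1, 85.4, 84.0 and 84.8 at DIV3, 85.2, 81.2 and 86.0 at DIV5 and 91.8, 91.4 and 91.6 at DIV7. All 12 libraries lay between 81.2 and 92.7, with DIV7 at the upper end. The member shared by Ccdc115 and Imp4 (chr1:34438885-34440404) had 66.3, 68.5 and 62.1 at DIV1, 62.5, 77.0 and 77.9 at DIV3, 70.2, 61.7 and 78.3 at DIV5 and 65.0, 75.6 and 59.4 at DIV7, and its days overlap throughout. The median SD of the normal score over 12 libraries was 0.529 over members, 0.648 over constant regions inside genes and 0.698 over those between genes.

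Few members passed the threshold for a trend with the day. Ranks varied between libraries all the same. The percentile of a member spanned a median of 54.7 points over the 12 libraries (quartiles 42.7 and 65.3). With limma on normal scores of ranks over all 12241 shared regions and Benjamini-Hochberg adjustment, 37 of 6478 members (0.571%) had an adjusted p under 0.05 for a trend with day, 20 rising and 17 falling. On the log2 maximum centred per library, the split was 44 rising and 19 falling. Over all shared regions 250 (2.04%) passed, 0.735% rising and 1.31% falling. Constant regions inside genes passed in 4.06% (115 of 2834) and those between genes in 3.79% (85 of 2240). At an unadjusted p under 0.05 there were 597 members (9.22%), against 16.2% of all shared regions. The median slope was 0.0054 normal score units per day over members and 7.28e-05 over all shared regions. The lower share at members held in all 20 fits to the same regions: 0.0309% to 3.07% of members passed, against 0.104% to 12.6% of the other shared regions. These fits share libraries, and the lowest shares, with the depth covariate, stand for 2 members and 6 other regions. The count of 37 was 15, 9 and 13 without DIV1 replicate 1, 2 and 3, 21 without DIV3 replicate 1, 21 without DIV5 replicate 1, and 18 and 24 without DIV7 replicate 1 and 3. Because a region had to be called in all libraries to enter, a site that appeared or vanished could be in neither class. A change in the share of cells with a bound site and a change of binding in each cell cannot be told apart. The shares are given as counts, with no test between the classes.

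Depth moved with the day, and all DIV1 libraries were of 51 bases while later days mixed 50 and 51, so day, depth and read length cannot be fully told apart. With a covariate for depth (log2 of the reads in peaks) 2 members passed, Tfdp2 and Gm1979 (limma adjusted p = 0.0320 for both). Leaving out the 3 libraries with fewest reads keeps only replicate 2 at DIV7. In that fit 0 of the 37 slopes changed sign, but most of the 37 lost the call. With read length as a term 27 members passed, and 19 of the 37 lost the call. Of the members named below, Rtf2, Gprc5c, Dner, Krtap11-1, Gm7697 and A930017K11Rik were among those lost (limma adjusted p = 0.0517, 0.0560, 0.0777, 0.0888, 0.0916 and 0.113), as was the pair of 2210418O10Rik and Gm14296 (0.118). Within the 50-base libraries limma called 0 members, with 446 at an unadjusted p under 0.05, and within the 51-base libraries 0, with 517.

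**Figure D4:**
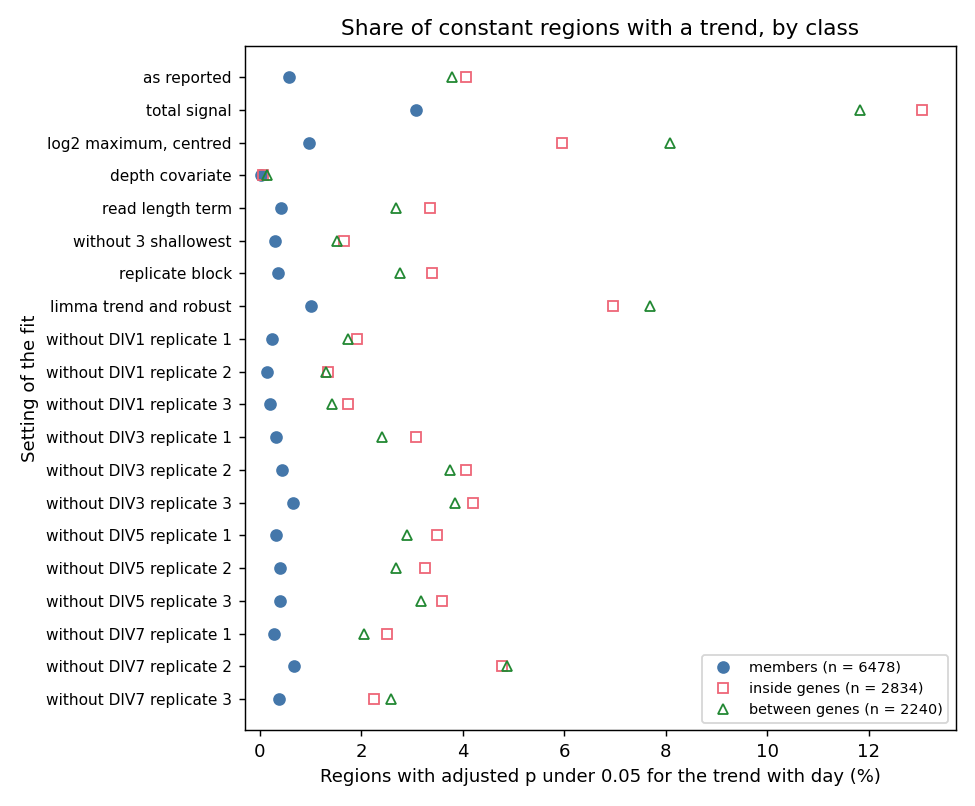
Share of constant regions with a limma adjusted p under 0.05 for the trend with day (percent), under 20 settings of the fit, for members (circles), regions inside genes (squares) and regions between genes (triangles). Members stand below both other classes under each setting, at 0.571% against 4.06% and 3.79% as reported; with the depth covariate all 3 are near 0.

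Calls were counted apart at gene starts and at ends of transcription. Of the 5190 members with a known gene start, 18 (0.347%) passed, 9 rising and 9 falling, while of the 142 with a known end of transcription only, 10 (7.04%) did, 4 rising and 6 falling. The share was higher at ends of transcription in all 20 fits, ranging from 0.704% to 12.7% there and from 0.0193% to 2.68% at starts. These fits share libraries and are not independent. The lowest shares, with the depth covariate, stand for 1 of 142 members at ends and 1 of 5190 at starts. Members at ends only had a median of 60.8 reads and a median SD of 0.694, against 82 reads and 0.526 at starts. The difference in shares was not tested, nor was the part that the lower read number has in it.

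Among the falling members, the largest slopes belonged to regions beside the ends of Vash2 and Tfdp2. Tfdp2 codes for a partner of E2F factors in cell cycle control. Its member, 383 bp from the end of transcription (chr9:96324029-96325290), had percentiles of 86.5, 84.2 and 91.2 at DIV1, 71.9, 67.2 and 68.5 at DIV3, 20.1, 34.0 and 53.2 at DIV5 and 10.4, 1.45 and 28.3 at DIV7. These rest on 187, 143 and 130 reads at DIV1 and 8, 28 and 15 reads at DIV7. Every DIV1 and DIV3 library lay above every DIV5 and DIV7 library, and the slope per day was -0.419 on the normal score scale (limma adjusted p = 0.00500). Vash2 codes for a tubulin carboxypeptidase. Its member (chr1:190947883-190949670) had 56.7, 92.7 and 62.1 at DIV1, 51.7, 40.3 and 42.5 at DIV3, 20.1, 9.84 and 53.2 at DIV5 and 2.08, 4.43 and 0.686 at DIV7, a slope of -0.435 (limma adjusted p = 0.00570). The DIV7 libraries lay below all others.

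Hs3st3b1, whose start window is printed above, codes for a heparan sulfate sulfotransferase, and its member at the gene start fell. Its percentiles (chr11:63920237-63923055) were 86.5, 57.7 and 86.6 at DIV1, 71.9, 77.0 and 42.5 at DIV3, 32.8, 34.0 and 53.2 at DIV5 and 10.4, 1.45 and 14.0 at DIV7, with a slope of -0.378 (limma adjusted p = 0.0113). DIV7 did not overlap any earlier day. These 3 kept their calls without each of the 12 libraries in turn. The member at the end of transcription of Rtf2, a factor of replication fork restart, had a slope of -0.327. Its limma adjusted p rose to 0.0738 when DIV1 replicate 1 was left out. The member of S1pr5, a sphingosine phosphate receptor, lay 471 bp from the end of transcription. It had a slope of -0.320, and leaving out DIV1 replicate 3 ended its call (limma adjusted p = 0.0550). Krtap11-1, a hair keratin-associated protein (-0.388), Pxmp4, a peroxisomal membrane protein (-0.385), and A930017K11Rik (-0.337) kept theirs in 5, 8 and 3 of the 12 fits that leave out 1 library, with limma adjusted p up to 0.120, 0.102 and 0.117. The Pxmp4 member holds the end of transcription of its gene. The Krtap11-1 member had 93.3, 77.4 and 72.4 at DIV1 and 10.4, 56.4 and 0.686 at DIV7, where replicate 2 stood well above the others.

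Among the rising members, Epn3, Gm7697 and Spata2l had the largest slopes. Epn3 codes for an epsin, an adaptor of endocytosis. Its member (chr11:94497837-94500571, which also holds an end of Mycbpap) had 1.03, 0.233 and 1.37 at DIV1, 10.7, 54.8 and 15.2 at DIV3, 46.3, 61.7 and 36.4 at DIV5 and 46.9, 56.4 and 44.5 at DIV7, and its slope was 0.399 (SE 0.0748; limma adjusted p = 0.0152). DIV1 lay below every later library, and leaving out DIV1 replicate 2 ended the call (limma adjusted p = 0.0543). Spata2l, on chromosome 8 (chr8:123234559-123236658), had 9.50, 4.12 and 16.1 at DIV1, 18.5, 25.2 and 15.2 at DIV3, 32.8, 61.7 and 36.4 at DIV5 and 78.4, 75.6 and 71.7 at DIV7, with a slope of 0.339 (limma adjusted p = 0.00566). DIV7 lay above all earlier libraries.

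Wiz codes for a zinc finger partner of the histone methyltransferases G9a and GLP, and its member (chr17:32388316-32389995) also holds an end of Rasal3. It had 16.0, 31.6 and 8.82 at DIV1, 62.5, 25.2 and 68.5 at DIV3, 70.2, 48.7 and 36.4 at DIV5 and 86.8, 94.0 and 87.7 at DIV7, and DIV7 lay above all earlier days. The slope was 0.333 (limma adjusted p = 0.0187; 0.0574 without DIV1 replicate 3). A further member lay 758 bp from the end of transcription of Cenpm, a centromere protein (chr15:82231451-82233004). Its percentiles were 9.50, 1.26 and 1.37 at DIV1 and 18.5, 12.7 and 15.2 at DIV3. At DIV5 they were 46.3, 48.7 and 36.4, and at DIV7 46.9, 56.4 and 44.5, with a slope of 0.328 (limma adjusted p = 0.0103). All DIV5 and DIV7 libraries of Cenpm lay above all DIV1 and DIV3 ones, and its call, like that of Spata2l, was kept without each library in turn.

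The other rising members of the naming rule lost their calls without several of the libraries. The narrowest member, a region of 263 bp, lay 728 bp from the end of transcription of Gm7697 (0.340). It kept its call in 2 of the 12 fits that leave out 1 library (limma adjusted p up to 0.134). Csk, an inhibitor of Src kinases whose member holds its end of transcription (0.324), kept the call in 4 (up to 0.115). Acaa1a, a peroxisomal thiolase (0.320), kept it in 5 (up to 0.0815) and Gprc5c, an orphan receptor (0.305), in 7 (up to 0.0866). Of the 37 called members, 5 kept the call in all 12 such fits and 15 kept it in 4 or fewer. Leaving out DIV1 replicate 2 (28 of 37) lost the most calls. A pair of rising members on chromosome 2, at 2210418O10Rik and Gm14296, had the same slope of 0.207 and mean percentile, and as near-identical copies each is uncertain.

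**Figure D5:**
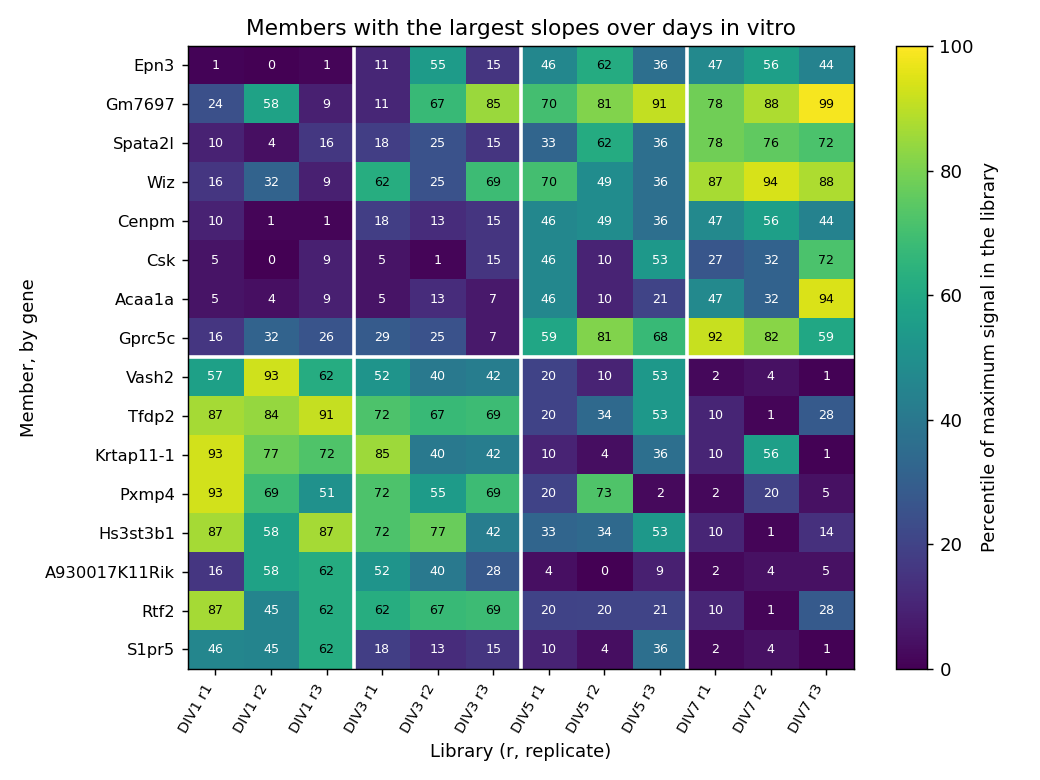
Percentile of the maximum signal in each of 12 libraries (columns, by day and replicate) for the 8 rising (top) and 8 falling (bottom) members with the largest slopes; colour and printed value give the percentile. The rows were picked for their slope, so the left-to-right contrast is a description: Cenpm and Spata2l are low at DIV1 in all 3 libraries, and Tfdp2 and Hs3st3b1 are high there.

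Of the members at lists, 1 granule neuron marker passed. Cbln3, named after its values were seen, codes for a cerebellin that granule neurons make as they mature. Its member (chr14:55883831-55886585), whose 2 start windows are printed above, had 24.4, 19.5 and 38.1 at DIV1, 18.5, 12.7 and 27.8 at DIV3, 59.2, 61.7 and 36.4 at DIV5 and 86.8, 67.0 and 87.7 at DIV7. Every DIV7 library stood above all earlier libraries, with a slope of 0.276 (SE 0.0629; limma adjusted p = 0.0344). Its limma adjusted p was 0.0601 with DIV1 replicate 1 left out, 0.0694 with DIV1 replicate 2, 0.0870 with DIV7 replicate 1 and 0.0828 with DIV7 replicate 3 left out. Read length as a term left it at 0.0464 and the depth covariate took it to 0.407. Among solute carriers 1 member rose (Slc16a13), and among predicted genes 2 rose and 1 fell. At the 26 lists without a call, chaperones, spliceosome, cell cycle and synapse included, 0 of 511 members passed in limma, while 44 had an unadjusted p under 0.05 (lowest adjusted p = 0.0575). Over all members 0.571% passed and 9.22% had an unadjusted p under 0.05, so a count of 0 in lists of this size says little about them.

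Dner, also named after its values were seen, codes for a Notch-related receptor of neurons. The member at its start (chr1:84693961-84696623) fell from 45.8, 84.2 and 94.3 at DIV1 to 26.8, 19.9 and 28.3 at DIV7, with a slope of -0.275 (limma adjusted p = 0.0371). Its days DIV1 and DIV7 do not overlap, but the call was kept in 6 of the 12 fits without 1 library (limma adjusted p up to 0.115). The hairpin of Mir5126 lies in it, 1 of 46 miRNA hairpins inside members and the only one in a member that passed. At Zic5 (chr14:122464394-122466615) the percentiles were 86.5, 89.2 and 86.6 at DIV1, 71.9, 77.0 and 77.9 at DIV3, 89.7, 81.2 and 36.4 at DIV5 and 46.9, 67.0 and 59.4 at DIV7. DIV1 stood above DIV7, but the slope of -0.147 did not pass (limma adjusted p = 0.219), and DIV5 overlaps both.

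Between the ends of the course, DIV7 against DIV1, limma called 28 members (0.432%), 15 higher and 13 lower (31 and 13 on the log2 maximum), against 1.9% of all shared regions, 0.735% higher and 1.16% lower. Both tests use the same libraries, and 16 members passed both, 43.2% of those with a trend and 57.1% of those here. Members that passed only here include B2m, the light chain of MHC class I molecules (difference 1.44 normal score units), Capg, an actin-capping protein (2.17), and Lman2, a lectin of the secretory pathway (-1.88); these 3 were named after their values were seen. With read length as a term 0 members passed in limma, with 567 at an unadjusted p under 0.05, and with the depth covariate 4. The count of 28 was 13, 11 and 3 without DIV1 replicate 1, 2 and 3, and 15 without DIV7 replicate 3.

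The limits of the rule cut through a continuous range. Just inside the width limit lay Mark2 and 2700081O15Rik, both 2999 bp wide (mean percentiles 38.9 and 64.2), and just outside Polr2l (3002 bp, 57.3) and Tbl1xr1 (3003 bp, 41.8). At the distance limit, Msantd2 (1000 bp, 62.3) and Fam120c (998 bp, 83.9) were in, and Skp1 (1002 bp, 26.7) and Atxn7l2 (1003 bp, 29.4) were out.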

How the data were processed

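Zic1/2 CUT&RUN was deposited as 1 peak list per library. The authors gave for each peak the total signal (summed coverage) and the maximum signal, in the form of a SEACR list; SEACR 1.3, STAR 2.7.2b, Trimmomatic 0.38, bedtools 2.25.0 and mm10 are named in the submitters' processing notes, while for the control, the threshold and duplicate reads the sources used here say nothing. Totals were whole multiples of 50 or 51, so the total divided by that number was read as reads; 51 divided the totals in all DIV1 libraries, DIV3 replicate 1, DIV5 replicate 3 and DIV7 replicate 3. Signals were not scaled to depth, so maxima were ranked library by library over the 12241 shared regions and turned into normal scores. Limma 3.58.1 (R 4.3.3), checked on simulated data, was fitted to all 12 libraries with day as a number, and with day as a group for DIV7 against DIV1; p-values were adjusted by the Benjamini-Hochberg method over all shared regions, with a threshold of 0.05. Coding genes, strands and 300-base windows came from RefSeq tables on GRCm38.p6, with no exons; 17273 of 21627 genes had a strand, through the promoter table. A total of 17 motif strings and 29 gene lists were searched or counted. The members, the lists, the tests and the naming rule were chosen with earlier results of these data known. The rule named the 8 rising and 8 falling members with the largest slopes, the 10 highest, the 5 lowest and the 6 steadiest members, the top 3 members of each list, Zic genes, and 2 regions on each side of each limit. Some regions it covers are not reported here.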

Additional observations from a re-analysis of the deposited data

How the results depend on the processing

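The number of members stayed within 1.5 times of 6478 under each alternative except that 651 were left where 50% of a region had to lie under peaks, with 802 genes reached and a ZIC core in 10.7% of their start windows against 9.14%; leaving out 1 library before merging gave 6530 to 7210. Counts of members with a trend depended on the settings: 199 with total signal, 63 with log2 maximum centred on the library median (44 rising and 19 falling), 2 with the depth covariate, 27 with the read length term, 19 without the 3 libraries with fewest reads, 65 with limma's trend and robust settings, 11 with peaks of maximum signal of at least 5, 2 with the 50% cover, 22 for members under 2000 bp, 18 within 1 kb of a known gene start, and 0 within the 50-base and 0 within the 51-base libraries. Leaving out 1 library gave 9 to 43. With total signal 3.07% of members passed, against 12.6% of the other shared regions. With log2 maximum the shares were 0.973% and 6.37%, and with trend and robust settings 1.00% and 6.77%. For DIV7 against DIV1 the counts were 176 with total signal, 44 with log2 maximum, 4 with the depth covariate, 0 with the read length term, 4 without the 3 libraries with fewest reads, where the lone DIV7 library is assumed to vary like the other groups, 57 with trend and robust settings, 3 with the 50% cover, 8 with the stricter peaks, 18 under 2000 bp, 17 at gene starts, and 3 to 31 with 1 library left out. The replicate block gave 23 members with a trend and 33 for DIV7 against DIV1. For DIV7 against DIV1, the shares of the other regions under these settings are not given here. The labels do not say whether libraries of the same number share a culture. In their deviations from the day means, libraries of the same number correlated at -0.0854 to 0.137 (mean 0.0253). Those of different numbers correlated at -0.138 to 0.186 (mean -0.0127). With 3 libraries per day these values cannot decide whether cultures were shared. Total signal reversed Arxes2 (slope -0.00639) and, for DIV7 against DIV1, Zfp629 (-0.0915), both without a call there. The causes were not tested. With 1 exception in each set of called members under total signal, no slope or difference that was compared changed sign. Signs were not compared within the 50-base or the 51-base libraries. The stricter peaks covered 18 of the 37 members with a trend and 15 of the 28 for DIV7 against DIV1. The 50% cover held 2 of those with a trend. The rules for gene lists and motif shares were applied to the other member sets after the data had been seen: counts of 27 of the 29 lists moved by over 1.5 times with the 50% cover, 12 under 2000 bp and 7 with the stricter peaks. With total signal, 36 of 89 mean percentiles of single members moved by more than 1 SD. Groups of 3 are too small to flag a single library.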
